A study of Mus musculus with 16 samples.

Results

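Kidneys of untreated Old mice were compared with kidneys of Young mice, 5 libraries against 5, which is 10 of the 16 libraries in the series. The libraries were chosen by their labels alone (untreated Old against Young control), and every gene with enough counts was tested. By its title the series compared Yukmijihwang-tang with Palmijihwang-tang, herbal formulas, in ageing mice. The other 6 libraries came from aged mice labelled YM or PM, dosed orally (100 mg/kg/day, 5 days each week). They were in no contrast, but entered the filter for enough counts, the scaling and the estimate of the spread between libraries. With the 10 libraries alone 13398 genes passed the filter, against 14665 with all 16. All mice were wild-type male C57BL/6, an inbred laboratory strain. Young mice were 3 months of age. Old mice were the untreated, naturally ageing group, set apart from the later treated mice after 5 months of acclimatization. Treated mice were dosed from 19 to 24 months of age, whereas the labels leave out how old the untreated Old mice were when kidneys were taken. They also leave out the supplier of either age group, the hour of collection, and whether each library came from a mouse of its own. The p-values therefore rest on the spread among these libraries, which may be technical.

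The kidney filters blood in the glomerulus and recovers most of the filtrate along the tubule. Its proximal tubule cells take up sugars, amino acids, phosphate and organic ions, burn fatty acids in abundant mitochondria, and in male mice express a set of genes that depend on androgens. With age, rodent kidneys are known for infiltrating immune cells, matrix deposition and scattered tubule injury.

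RNA was read near the 3' end of each transcript by QuantSeq, so that a count stands for a transcript end rather than for transcript length. Levels below are counts per 1000000 (CPM) on scaled library totals, always given in the order of library 1 to library 5. A log2 change is Old against Young, positive where Old was higher, with its standard error (SE). A gene is called where its adjusted p, from the quasi-likelihood test of edgeR with Benjamini-Hochberg adjustment over 14665 tested genes, was under 0.05. Means are given ± SD over the 5 libraries of a group. In whole kidney, fewer cells of a type and less RNA per cell cannot be told apart.

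Totals ran from 8745019 to 10914515 counts, so that 1 CPM was about 8.75 counts in the shallowest library. They did not separate the groups (exact permutation test, two-sided, p = 0.524). The TMM factors by which totals were scaled did, at 0.850 to 0.963 in Young and 0.972 to 1.11 in Old. These factors enter every CPM and log2 change, and a higher factor lowers the levels of a library. The mitochondrial genome gave 21.8% ± 4.23 of the counts in Young and 20.3% ± 1.69 in Old (SD, n = 5 each, exact permutation p = 0.468). Thinned to 8745019 counts each, Young libraries detected 17220.4 ± 197 genes and Old libraries 18017 ± 499.7, without overlap. The exact permutation p of 0.00794 is the smallest that 5 against 5 allows. In a principal component analysis of 2000 highly variable genes, on the leading axis, which held 37.6% of the variance, all Young libraries lay on 1 side and all Old libraries on the other.

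The Old libraries were not alike. Old 5 was the highest Old library for 59.0% of the genes called higher and the lowest for 58.6% of those called lower. Old 4 was nearest to Young most often, as the lowest Old library for 34.6% of the higher genes and the highest for 48.7% of the lower genes. Old 4 also differed in the circadian clock, the transcription loop that times gene expression over the day. A clock difference was taken as the mean log2 level of Dbp, Tef, Nr1d1, Nr1d2, Per1, Per2, Per3 and Ciart minus that of Bmal1, Npas2, Nfil3 and Clock. It ran from -0.87 to 0.75 in Young and stood at 4.34, 5.09, 5.24, 0.41 and 4.02 in Old 1 to Old 5. Of the Old libraries, Old 4 alone lay within the Young range. Results are therefore given without Old 4, without Old 5 and with the clock difference as a covariate where these move them.

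**Figure D1:**
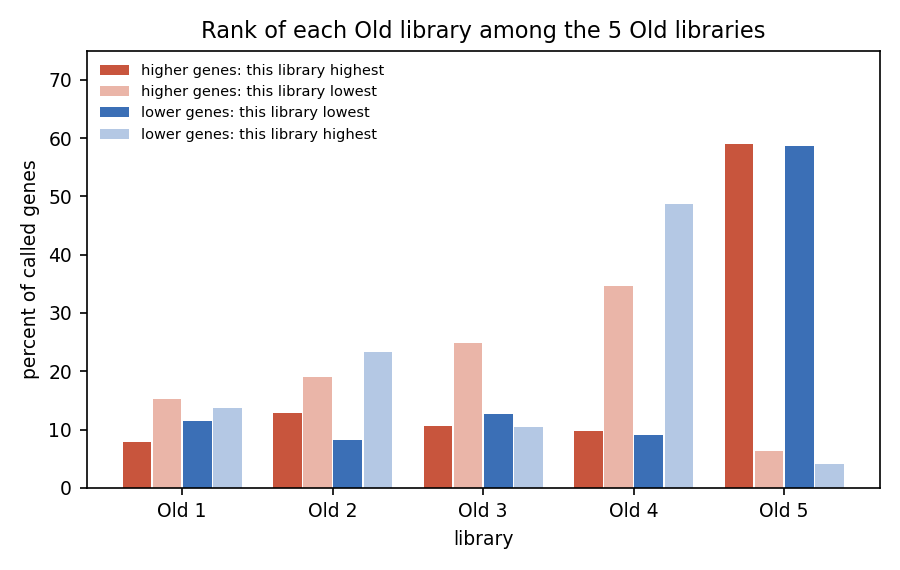
Percent of called genes (vertical axis) for which each Old library was the highest or the lowest of the 5 Old libraries, split into genes called higher and genes called lower in Old. Old 5 took the position farthest from Young for 59.0% of the higher and 58.6% of the lower genes.

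Among genes that vary between C57BL/6 substrains, Nnt, the mitochondrial transhydrogenase that C57BL/6J mice carry with a deletion, measured 129, 113, 98.5, 102 and 112 CPM in Young and 51.7, 48.6, 42.7, 46.9 and 42.6 CPM in Old (log2 -1.25, SE 0.10, adjusted p = 9.1e-08). Wdfy1, an endosomal adaptor protein, measured 49.3, 52.0, 62.0, 48.6 and 63.3 CPM in Young and 15.2, 10.4, 14.6, 8.18 and 11.2 CPM in Old (log2 -2.21, SE 0.15, adjusted p = 3.32e-08). Every Old library lay below every Young library for both genes, and both calls held under every setting tried. Of 5 tested genes on this list, 3 were called lower and 1 higher (median log2 -0.35). The other lower one was Cyfip2, an actin regulator (log2 -0.35, adjusted p = 0.0469), a call lost without Young 1, Young 2, Young 3, Young 4, Old 1, Old 2 or Old 3 (adjusted p 0.0739 to 0.133). The labels give only C57BL/6, so age and the origin of the mice cannot be told apart in any result below. Exons of Wdfy1 overlap those of a protein-coding neighbour in the annotation. The same holds for Acsm3, Afmid, C2, Ccnd1, Cp, Cygb, Cyp51, Dbp, Glb1, Gss, Hexa, Hspd1 and Hspe1, Ndufb8, Nos3, Pdzk1, Prlr, Rhbg, Rpl28, Rps28, Selenop, Slc34a1, Slc7a7 and Trf, and other named genes, such as Umod, Icam1 and Vcam1, overlap antisense or noncoding genes. No source used here gives the strand setting of the counting, so reads of such pairs may not have been told apart.

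Across the 14665 genes tested, 1995 were called (13.6%), 949 higher in Old (6.47%) and 1046 lower (7.13%). These shares are the background for each count of list members below. For 1347 genes (9.19%) all Old libraries lay on 1 side of all Young libraries, above for 4.21% and below for 4.97%. Rises were larger and falls more numerous among abundant genes. At a change of at least 2-fold there were 480 called genes higher and 138 lower, and at 4-fold 173 and 25. Genes called higher had a median level in Young of 6.36 CPM, genes called lower 72.3 CPM, and all tested genes 13.2 CPM. Among the 405 genes at a mean of 300 CPM or more, 28.4% were called lower and 3.21% higher. Summed over the called genes, the mean level rose by 15812 CPM among the higher genes and fell by 83749 CPM among the lower genes. Lower TMM factors in Young raise CPM there, so that scaled levels sum to more in Young. These sums depend on the scaling and cannot be read as a net loss of transcripts.

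**Figure D2:**
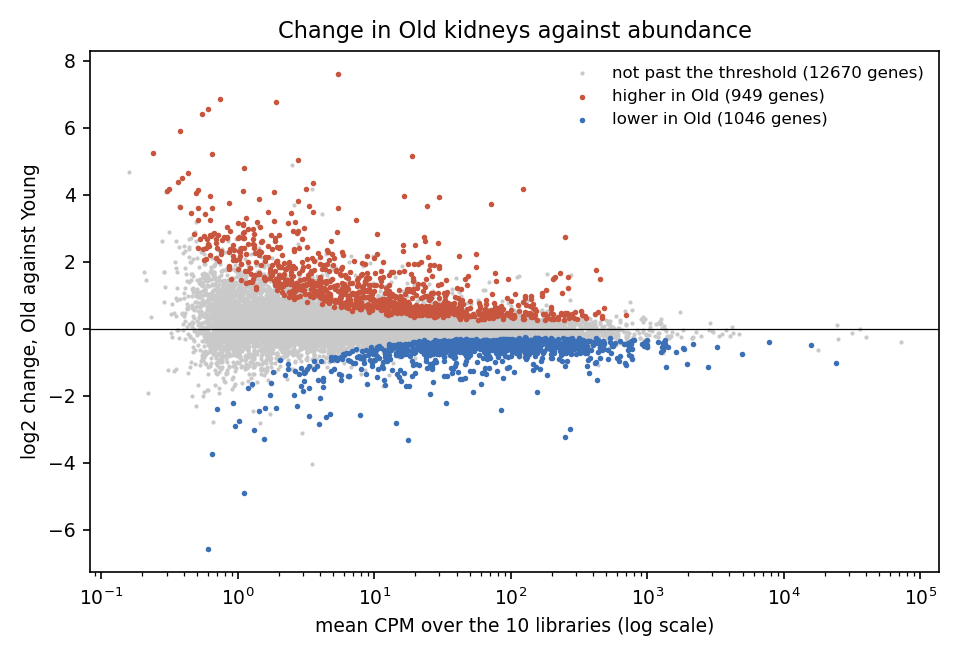
Log2 change of each tested gene in Old against Young (vertical axis) over its mean CPM in the 10 libraries (horizontal axis, log scale), coloured by call. Called rises (949) spread upward at low levels, and called falls (1046) extend to the most abundant genes.

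The split between rises and falls depended on the scaling of the libraries. With upper quartile scaling, which moved the median of all tested genes from 0.02 to 0.07, 1104 genes were higher and 758 lower, 59.3% higher against 47.6% with the main scaling. With the clock difference as a covariate 387 genes were called, 262 of them among those above. Below, called genes that kept their call under this covariate are named as such in each paragraph, and the other called genes there lost it. For genes that make up the clock difference the covariate is no test, since it was built from their own levels. Without Old 5 the number of called genes was 1208 (548 higher, 660 lower), without Young 4 1235 and without Old 4 2656. Genes called lower numbered 670, 662, 696 and 595 on leaving out Young 1, Young 2, Young 3 and Young 4 in turn.

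Genes typical of the male proximal tubule included the largest loss in CPM of all called genes, that of Kap. Kap, the kidney androgen-regulated protein and a highly abundant transcript in male mouse kidney (chr6:133849851-133853762, minus strand), stood at 35293, 34013, 31188, 33691 and 27060.4 CPM in Young and 17010, 19699.8, 15262, 17779.6 and 9909 CPM in Old (log2 -1.02, SE 0.15, adjusted p = 0.000212). The highest Old library did not reach the lowest Young library, and Old 5 was lowest. Slco1a1, an organic anion uptake transporter (chr6:141907282-141946962, minus strand), stood at 389, 406, 445, 563 and 461 CPM in Young and 63.4, 66.3, 64.6, 37.5 and 10.5 CPM in Old (log2 -3.22, SE 0.41, adjusted p = 0.000429). All Old libraries were below the Young ones, and Old 5 was far below the other Old libraries. Odc1, ornithine decarboxylase, which makes the first polyamine (chr12:17544794-17551505, plus strand), fell from 260.0, 209, 249, 289 and 223 CPM to 81.4, 79.6, 68.4, 66.0 and 41.3 CPM (log2 -1.87, SE 0.17, adjusted p = 2.32e-06). Here too the groups were apart. Of 25 tested genes listed as androgen-responsive or male-biased, 14 were called lower and 2 higher, with a median log2 change of -0.67 against 0.02 over all tested genes. Acsm3, a medium-chain acyl-CoA synthetase (142 ± 20.9 to 26.7 ± 5.00 CPM), Cyp7b1, an oxysterol hydroxylase (82.9 ± 10.8 to 22.3 ± 7.89 CPM), and Gusb, the lysosomal beta-glucuronidase (30.9 ± 5.11 to 16.9 ± 2.08 CPM), were further members that fell. The lower count was 14 without Old 4, 12 without Old 5 and 10 with the clock covariate. All 6 of these named genes kept their calls there. The higher count fell to 1 with Young 1, Young 3 or Old 2 left out.

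Genes listed as female-biased were called higher more often than lower. Of 15 tested, 7 were called higher and 3 lower (median log2 0.94). The summed level of the list went the other way, from 6993 to 8193 CPM in Young libraries against 4074 to 5741 CPM in Old libraries. The counts therefore do not describe the list as a whole. Cyp4a14, a fatty acid omega-hydroxylase and target of the lipid sensor PPARA (chr4:115486200-115496142, minus strand), rose from 20.6, 15.7, 7.89, 9.37 and 9.98 CPM in Young to 154, 243, 111, 147 and 499 CPM in Old (log2 4.18, SE 0.52, adjusted p = 0.000418). The lowest Old library was several times the highest Young library, and Old 5 was highest. Prlr, the prolactin receptor, measured 5.57, 6.19, 3.13, 4.74 and 4.99 CPM and 21.2, 22.8, 20.1, 17.5 and 57.1 CPM (log2 2.49, SE 0.38, adjusted p = 0.00100). Hao2, a peroxisomal hydroxyacid oxidase, rose from 86.5 ± 5.27 to 166 ± 21.6 CPM. Slc22a7, an organic anion transporter on the same list, was among the 3 called lower. It fell from 31.5, 34.0, 31.9, 31.8 and 30.6 CPM to 2.59, 6.59, 2.50, 3.21 and 0.997 CPM (log2 -3.32, SE 0.53, adjusted p = 0.00133). Cyp4a14 and Hao2 kept their calls with the clock covariate, under which 4 list members stayed higher. Steroid enzymes outside the sex-typical lists were also among the 20 largest falls. Srd5a2, steroid 5-alpha-reductase, fell from 18.2 ± 3.16 to 5.73 ± 2.07 CPM, Hsd17b11, a short-chain dehydrogenase of lipid droplets, from 633 ± 60.5 to 222 ± 48.3 CPM, and Akr1c14, a 3-alpha-hydroxysteroid dehydrogenase, from 27.3 ± 6.33 to 8.37 ± 2.03 CPM (log2 -1.67, -1.51 and -1.70). All 3 kept their calls with the covariate.

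**Figure D3:**
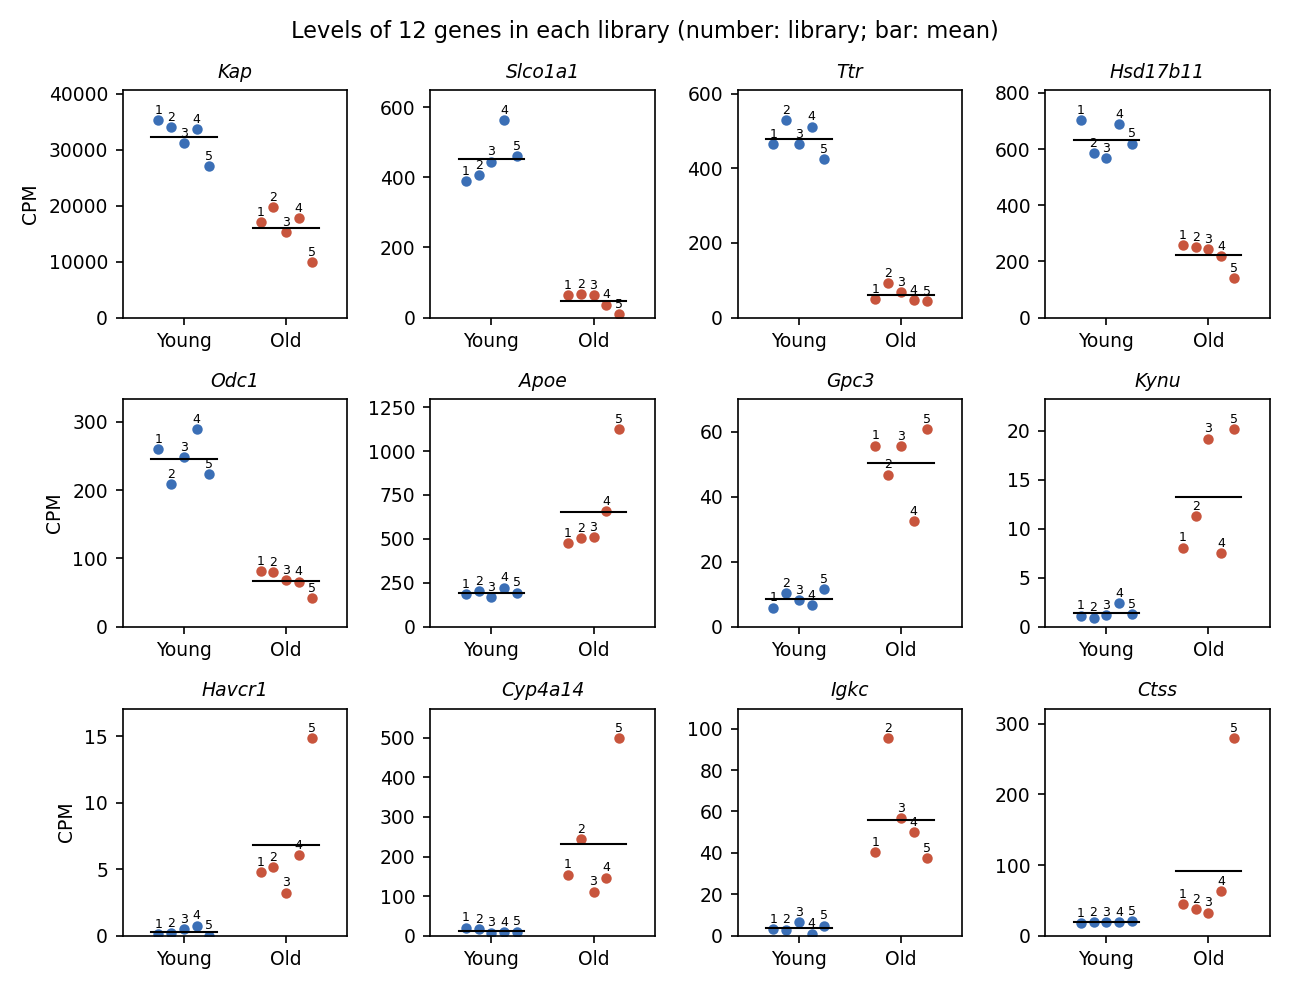
CPM of 12 genes in each library (points, numbered by library, with the group mean as a bar, linear axes from 0). Kap, Slco1a1, Ttr, Hsd17b11 and Odc1 were lower in all 5 Old libraries, the other genes were higher in all 5, and Old 5 stood above the other Old libraries for Havcr1, Cyp4a14, Ctss and Apoe.

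Among the largest falls outside the sex-typical genes, Ttr, the carrier of thyroxine and retinol-binding protein, stood at 464, 529, 464, 512 and 424 CPM in Young and 49.5, 92.8, 68.0, 46.7 and 44.7 CPM in Old (log2 -2.99, SE 0.19, adjusted p = 3.32e-08). All Old libraries were far below all Young libraries. Mfsd2a, a transporter of lysophospholipids, fell from 25.3 ± 11.98 to 3.59 ± 0.746 CPM (log2 -2.81, adjusted p = 2e-05). Slc10a2, the apical bile acid transporter, fell from 65.1 ± 8.50 to 23.1 ± 6.50 CPM, and Nt5e, the CD73 ectonucleotidase that makes adenosine, from 62.9 ± 10.4 to 22.5 ± 8.17 CPM. Lipo3, a lipase family member, Adamts15, a matrix protease, Rhov, a small GTPase, and Kif20b, a mitotic kinesin, were lower as well (log2 -1.58, -1.55, -1.66 and -1.69). Ttr, Mfsd2a and Lipo3 kept their calls with the clock covariate. By CPM lost, mt-Rnr1, a mitochondrial ribosomal RNA described with the respiratory chain, came next after Kap. Further losses were those of abundant transcripts. Acsm2, a medium-chain acyl-CoA synthetase, fell from 6194 ± 462 to 3673 ± 860.0 CPM, Acy3, an aminoacylase, from 3809.7 ± 466 to 1743 ± 519 CPM, Inmt, an indole N-methyltransferase, from 1874 ± 193 to 848 ± 282 CPM, and Selenop, the selenium carrier, from 2012 ± 315 to 1243 ± 229.9 CPM. Acy3, Inmt and Selenop kept their calls with the covariate. Ndrg1, a stress-responsive protein, measured 2453, 2371, 2642, 2867 and 2762 CPM in Young and 1004, 905, 944, 2324 and 1132 CPM in Old (log2 -1.05, adjusted p = 0.0490). Old 4 was close to Young and the other Old libraries were far below, and the call was lost without Young 1, Young 2, Young 3, Young 4, Young 5, Old 1, Old 2, Old 3 or Old 5 (adjusted p 0.0793 to 0.127), while with the clock covariate the log2 change was 0.13.

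Rises that kept their calls under every setting tried included genes of growth factor binding, lipid transport, and tryptophan and retinoid metabolism. Gpc3, glypican-3, a heparan sulfate proteoglycan that binds growth factors (chrX:52272426-52613950, minus strand), rose from 5.88, 10.4, 8.09, 6.57 and 11.6 CPM to 55.8, 46.8, 55.6, 32.6 and 60.8 CPM (log2 2.57, SE 0.19, adjusted p = 4.2e-08). Kynu, kynureninase of the tryptophan pathway, rose from 1.14, 0.913, 1.21, 2.37 and 1.31 CPM to 8.05, 11.3, 19.2, 7.49 and 20.1 CPM (log2 3.24, SE 0.33, adjusted p = 4.82e-06). The groups did not overlap for either gene. Aldh1a1, a retinaldehyde dehydrogenase, rose from 5.95 ± 1.79 to 34.0 ± 13.0 CPM (log2 2.50, adjusted p = 1.83e-05). Cygb, cytoglobin, a globin of fibroblasts, was higher too, from 15.1 ± 2.72 to 68.1 ± 23.5 CPM (log2 2.17), but lost its call with the covariate. By CPM gained, Apoe, the lipid carrier, rose from 184, 201, 168, 222 and 194 CPM to 474, 505, 511, 657 and 1125 CPM (log2 1.76, SE 0.20, adjusted p = 6.86e-05) and kept its call under every setting. Ccnd1, cyclin D1 of the cell cycle, rose from 236 ± 58.4 to 660.3 ± 201 CPM, and Mgp, a calcification inhibitor of vessels and stroma, from 134 ± 18.6 to 391 ± 114 CPM.

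At the low end, 24 genes had no count in any Young library and counts in all Old libraries, and 7 had the opposite pattern. Ifi208, an interferon-inducible gene, had 4 to 27 counts per Old library, at least 22.97-fold higher than a floor of 3 counts over the Young group. Prg2, the eosinophil major basic protein, had 4 to 21 counts, at least 16.8-fold higher by the same floor. Among genes seen only in Young, the predicted gene Gm39813 had 3 to 23 counts and was at least 19.95-fold lower in Old. Adjusted p was 0.000948, 0.00432 and 0.00478. Ifi208 and Prg2 kept their calls with the clock covariate.

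Proximal tubule transporters were called in both directions. Of 48 tested, 8 were called higher and 11 lower (median log2 -0.17), beside 6.47% and 7.13% over all tested genes. Slc34a1, the main phosphate cotransporter of the proximal tubule, averaged 4937 ± 301 to 4413 ± 653 CPM (Young to Old) and was not called (log2 -0.16, adjusted p = 0.379). Slc22a2, the basolateral organic cation transporter, measured 1079, 1030.4, 897, 1094 and 938 CPM in Young and 560.3, 557, 525, 669 and 411 CPM in Old (log2 -0.89, SE 0.12, adjusted p = 0.000147). Every Old library was below every Young library. Slc17a3, a urate and phosphate transporter, fell from 494 ± 16.3 to 268 ± 64.3 CPM, and Slc7a13, the aspartate, glutamate and cystine transporter of the straight segment, from 479 ± 58.9 to 254 ± 52.1 CPM. In the other direction, Abcc4, an efflux pump for organic anions and cyclic nucleotides, rose from 24.6, 25.9, 23.8, 21.9 and 24.6 CPM to 51.7, 78.9, 61.6, 62.7 and 108 CPM (log2 1.59, SE 0.19, adjusted p = 5.42e-05). Slc7a7, the basolateral exporter of cationic amino acids, rose from 120.3 ± 14.2 to 182 ± 4.23 CPM. All 5 called genes kept their calls with the covariate and without each library. The higher count was 4 with Young 1, Young 3 or Old 3 left out and 5 with Young 2 or Old 2 left out and 2 with the covariate.

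Drug and fatty acid metabolizing enzymes changed in both directions within families. Of 31 tested Cyp4 and Cyp2 genes, 9 were called higher and 6 lower. Cyp2d12 rose from 106, 106, 101, 125 and 98.5 CPM to 384, 337, 289, 305 and 236 CPM (log2 1.53, SE 0.16, adjusted p = 9.91e-06). Cyp2c23, the renal epoxygenase of arachidonic acid, rose from 26.7, 26.7, 27.8, 26.8 and 27.3 CPM to 65.4, 90.2, 72.4, 55.5 and 55.4 CPM (log2 1.32, SE 0.12, adjusted p = 1.02e-06). Young libraries lay close together for Cyp2c23, and all Old libraries were above them. Cyp4a10 and Cyp4a12b, further omega-hydroxylases, rose from 153 ± 28.4 to 318 ± 74.4 CPM and from 17.8 ± 2.99 to 49.0 ± 14.1 CPM, whereas Cyp2j13 fell from 340.0 ± 55.0 to 159 ± 43.8 CPM. Near-identical copies in the Cyp4a, Akr1c, Gsta, Ces1, H2 and immunoglobulin families may share reads, so single members are uncertain. Among 35 conjugation and detoxification genes, 16 were called lower and 8 higher (median log2 -0.43). Fmo5, a flavin monooxygenase, fell from 146, 143, 119.6, 132 and 104 CPM to 55.8, 47.1, 47.9, 46.2 and 35.0 CPM (log2 -1.47, SE 0.13, adjusted p = 8.18e-07). The epoxide hydrolases split, with Ephx1, the microsomal form, rising from 17.4 ± 3.58 to 44.1 ± 11.4 CPM, and Ephx2, the soluble form, falling from 444 ± 46.9 to 290.2 ± 44.7 CPM. Akr1c13 rose from 7.70 ± 1.24 to 25.4 ± 7.99 CPM, and Ces1e, a carboxylesterase, fell from 87.7 ± 10.3 to 50.4 ± 9.07 CPM. With the clock covariate the 2 lists had 5 and 5 genes higher and 1 and 6 lower. The genes named here kept their calls there apart from Cyp2j13 and Ces1e.

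Across the 36 antioxidant and NRF2 target genes tested, 5 were called higher and 6 lower (median log2 -0.06, -0.02 without Old 5). The shares over all tested genes were 6.47% and 7.13%. Gsta2 and Gsta3, glutathione transferases, rose from 109 ± 5.83 to 229 ± 32.9 CPM and from 98.3 ± 9.44 to 182 ± 13.5 CPM (log2 1.07 and 0.89, adjusted p = 7.99e-05 and 5.15e-05). Gclm, the modifier subunit of the enzyme that starts glutathione synthesis, fell from 217 ± 32.03 to 119.6 ± 17.7 CPM, Gss, glutathione synthetase, from 143 ± 13.7 to 92.1 ± 11.3 CPM, and Ggt1, the brush border enzyme that cleaves glutathione, from 966 ± 156 to 554 ± 114 CPM. Prdx1, a peroxiredoxin, fell from 1175 ± 55.9 to 811 ± 89.1 CPM. Nfe2l2, which encodes NRF2 itself, was among the higher ones (log2 0.28, adjusted p = 0.0239), a call lost without Young 3 or Old 5 (adjusted p 0.0600 to 0.0612). The higher count was 3 with Young 3 or Old 5 left out. Gsta2, Gsta3, Gss and Prdx1 kept their calls with the clock covariate.

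Genes listed under tryptophan and NAD metabolism were called lower in 4 of 22 cases, while Kynu alone was higher (median log2 -0.22). Not every gene on this list is a step from tryptophan to NAD. Haao, which acts after Kynu in the pathway, fell from 287, 283, 238, 285 and 209 CPM to 143, 165, 135, 174 and 96.5 CPM (log2 -0.87, SE 0.14, adjusted p = 0.000829), and Afmid, which acts before it, fell from 169 ± 21.4 to 95.3 ± 20.5 CPM. No Old library reached a Young one for either. In lipid handling, Cd36, the fatty acid translocase, fell from 204, 176, 196, 217 and 223 CPM to 87.4, 94.0, 93.4, 84.6 and 74.3 CPM (log2 -1.23, SE 0.12, adjusted p = 4.27e-06). Lpl, lipoprotein lipase, listed among adipose markers but abundant in these kidneys, fell from 1038, 813, 1029, 1051 and 793 CPM to 574, 554, 426, 402 and 301 CPM (log2 -1.07, SE 0.16, adjusted p = 0.000341). All Old libraries were below all Young libraries for both, and both kept their calls under every setting. Among 33 fatty acid oxidation genes and PPARA targets, 5 were higher and 5 lower, where 6.47% and 7.13% of all tested genes were called. Acads, the short-chain acyl-CoA dehydrogenase, fell from 432 ± 66.5 to 262 ± 59.4 CPM. Ppara itself was called higher (log2 0.43, adjusted p = 0.0127). The lower count was 2 with Young 5 left out and 3 with Young 1, Young 3, Young 4, Old 4 or Old 5 left out.

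Cholesterol and lipid synthesis genes were called lower in 6 of 30 cases and higher in 1 (median log2 -0.29). For this list and that of glucose metabolism, the shares over all tested genes were 7.13% lower and 6.47% higher. Cyp51, lanosterol demethylase, fell from 285, 268, 240.0, 297 and 228 CPM to 94.5, 117, 90.0, 134 and 73.9 CPM (log2 -1.37, SE 0.17, adjusted p = 8.78e-05). Fasn, fatty acid synthase, fell from 80.6, 112, 72.7, 104 and 74.0 CPM to 32.7, 37.7, 20.4, 70.4 and 37.2 CPM (log2 -1.16, SE 0.25, adjusted p = 0.00627). Old 4 was the highest Old library for both, and for Fasn it came close to Young. Stard4, a cholesterol carrier, was the member called higher (log2 0.38, adjusted p = 0.0148). The lower count was 12 with Old 4 left out. Cyp51 kept its call with the clock covariate. In glucose metabolism, G6pc, glucose-6-phosphatase of gluconeogenesis, fell from 443, 519, 459.9, 653 and 855 CPM to 379, 322, 360.1, 319 and 221 CPM (log2 -0.87, SE 0.17, adjusted p = 0.00215) and kept its call with the covariate. Pck1, the other key enzyme of that pathway, measured 389, 460.5, 479, 419.6 and 1003 CPM and 792, 747, 693, 112 and 489 CPM and was not called (log2 0.04, adjusted p = 0.969). Its lowest value was in Old 4. Khk, ketohexokinase, fell from 540.1 ± 74.5 to 367 ± 59.9 CPM. Of 28 genes of both pathways 5 were lower and 1 higher, and the lower count was 2 with Young 1 left out and 3 with Young 2, Young 3, Young 4 or Old 5 left out.

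Nuclear genes of the respiratory chain were called lower in 27 of 77 cases and higher in none (median log2 -0.26), and 18 lay below Young in every Old library. Cycs, cytochrome c, measured 188, 158, 139, 178 and 171 CPM in Young and 100.4, 91.1, 95.8, 97.3 and 67.8 CPM in Old (log2 -0.88, SE 0.12, adjusted p = 8.78e-05). Ndufa10, a complex I subunit, measured 670.0, 675, 658, 699 and 575 CPM and 470.5, 464, 436, 484 and 431 CPM (log2 -0.52, SE 0.09, adjusted p = 0.000806). Groups were apart for both. Further complex I subunits, Ndufb4 and Ndufb8, fell from 169 ± 20.2 to 101 ± 19.4 CPM and 1113 ± 104 to 777 ± 88.2 CPM, and Uqcrq of complex III from 822 ± 39.3 to 612 ± 51.2 CPM. The lower count was 12 with Young 1 left out, 13 with Young 4 left out, 15 with Young 2 or Young 3 left out, 16 with Old 5 left out and 17 with Old 1 left out, 16 with upper quartile scaling, 14 with only the 10 libraries in the model and 1, Cycs, with the clock covariate. Of the mitochondrial genome's own transcripts, mt-Rnr1, the small ribosomal RNA, and ND5, a complex I subunit, were among the largest losses in CPM (log2 -0.48 and -0.53, adjusted p = 0.0393 and 0.0436). Their groups overlapped, and the calls were lost without Young 1, Young 2, Young 3, Young 4, Old 1, Old 2 or Old 5 (adjusted p 0.0719 to 0.114) for mt-Rnr1 and without Young 2, Young 3, Young 4, Young 5, Old 1, Old 2, Old 3 or Old 5 (adjusted p 0.0546 to 0.142) for ND5. ND3, another complex I subunit, went up from 0, 0.609, 0.708, 0.108 and 3.02 CPM to 14.7, 5.35, 16.7, 3.11 and 10.3 CPM (log2 3.60, adjusted p = 0.0121). Its levels in Young were near the floor and rest on few counts, so the size of that rise is uncertain.

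Proteasome subunits were called lower in 17 of 31 cases and higher in none (median log2 -0.37). Among all tested genes 7.13% were called lower and 6.47% higher. Psmd2, a base subunit of the regulatory particle, measured 184, 184, 191, 193 and 193 CPM in Young and 139, 141, 136, 147 and 128 CPM in Old (log2 -0.45, SE 0.08, adjusted p = 0.00129). Psmb5, a catalytic core subunit, fell from 38.1 ± 5.71 to 25.5 ± 3.82 CPM, Psmb1 from 237 ± 26.02 to 169.5 ± 20.5 CPM and Psma7 from 337 ± 27.2 to 256 ± 23.7 CPM. Psma1, a core subunit, was not called (log2 -0.03, adjusted p = 0.914). The lower count was 8 with Young 4 left out, 9 with Young 2 or Old 5 left out, 10 with Young 1 or Old 2 left out and 11 with Young 3 or Old 1 left out, 11 with only the 10 libraries in the model, and 1 with the clock covariate. Cytosolic ribosomal proteins moved the other way, with 19 of 76 called higher and none lower (median log2 0.25). Rps4x rose from 67.4 ± 5.37 to 99.8 ± 15.3 CPM, Rps28 from 349 ± 17.3 to 474 ± 22.5 CPM and Rpl28 from 172 ± 16.7 to 235 ± 20.3 CPM. The higher count was 9 with Old 5 left out, 10 with Young 2 or Old 3 left out, 11 with Young 3 or Young 4 left out and 12 with Young 1 or Old 2 left out, and 4 with the covariate.

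Chaperones and unfolded protein response genes were called lower in 16 of 37 cases and higher in 2 (median log2 -0.37). Hsp90aa1, the inducible cytosolic HSP90, measured 361, 367, 342, 347 and 279 CPM in Young and 154, 149.9, 165, 259 and 144 CPM in Old (log2 -0.96, SE 0.14, adjusted p = 0.000299). Nearest to Young was Old 4. Hspd1, the mitochondrial HSP60, measured 303, 275, 278, 324 and 285 CPM and 182, 197, 230.3, 198 and 143 CPM (log2 -0.62, SE 0.11, adjusted p = 0.00100). Hsp90ab1, the constitutive HSP90, fell from 1517 ± 119.7 to 1051 ± 140.0 CPM, and Dnajb11, a chaperone of the endoplasmic reticulum, from 78.9 ± 8.71 to 53.4 ± 4.64 CPM. Hspb8, a small heat shock protein, rose from 3.32 ± 1.33 to 9.53 ± 2.29 CPM (log2 1.51, adjusted p = 0.00102). The heat shock element, the site of the heat shock factors, was searched as GAA, TTC and GAA in this order with any 2 bases between them, on both strands of RefSeq promoters (250 bases before to 50 after the start, GRCm38.p6). It occurred in 0.603% of 32851 promoters and in those of 4 of 32 chaperone genes with an entry, Hsph1, Hspd1, Hspe1 and Chordc1, all 4 called lower. Among all tested genes with a promoter entry it was in 0.563% of those called higher, 0.853% of those called lower and 0.557% of all. The motif was chosen with the values of the chaperones known. Hspd1 and Hspe1 start next to each other on opposite strands and share this stretch. In GENCODE the Hspd1 gene spans chr1:55077835-55088243, minus strand, so the window below lies within that gene and upstream only of the RefSeq start. The Hspd1 window at chr1:55088014-55088121, minus strand shows overlapping matches, 144 and 139 bases before the RefSeq start, in capitals:
Hspd1: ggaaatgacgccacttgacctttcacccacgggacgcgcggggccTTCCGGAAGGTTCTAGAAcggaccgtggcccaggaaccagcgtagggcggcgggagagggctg
A match is a description of the sequence only. Dnajb11 and Hspb8 kept their calls with the clock covariate, under which 3 members were lower. Of the lysosome and autophagy genes, 8 of 40 were called lower, among them Glb1, the beta-galactosidase (135 ± 10.2 to 82.8 ± 10.4 CPM, adjusted p = 0.000113), and Map1lc3a, an LC3 of autophagosomes (148 ± 15.4 to 103 ± 13.3 CPM). Hexa, a beta-hexosaminidase subunit, was among 3 higher ones (27.0 ± 2.71 to 42.1 ± 7.61 CPM). That higher count was near the 6.47% called higher over all tested genes, of which 7.13% were called lower. Glb1 kept its call with the covariate, and its exons overlap those of Tmppe.

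Markers of the distal nephron segments were called in both directions, beside 6.47% called higher and 7.13% called lower over all tested genes. In the thick ascending limb, 1 of 21 markers was higher and 3 lower, and Umod, uromodulin, was not called (1195 ± 192 to 1342 ± 106 CPM, adjusted p = 0.370). In the distal convoluted tubule, 2 of 21 markers were higher and 3 lower. Slc12a3, the thiazide-sensitive sodium chloride cotransporter, rose from 404, 353, 375, 380.3 and 374 CPM to 593, 614, 561, 517 and 639 CPM (log2 0.63, SE 0.11, adjusted p = 0.00100). Pvalb, parvalbumin of this segment, fell from 89.3, 71.5, 64.7, 86.9 and 56.3 CPM to 41.6, 27.2, 35.2, 29.7 and 21.6 CPM (log2 -1.25, SE 0.21, adjusted p = 0.00120), and Calb1, calbindin, fell from 329 ± 20.5 to 229 ± 28.4 CPM. The groups were apart for all 3. In principal cells, Aqp2, the vasopressin-regulated water channel, measured 301, 348, 369, 392 and 261 CPM and 183, 183, 222, 382 and 243 CPM and was not called (log2 -0.46, adjusted p = 0.153). Old 4 stood at the Young level and the other Old libraries below it. Pde4d, which degrades cyclic AMP, rose from 89.8 ± 9.78 to 157 ± 26.7 CPM, and Apela, a peptide ligand of the apelin receptor, fell from 169.6 ± 22.8 to 103 ± 19.1 CPM. Intercalated cell markers included Rhbg, an ammonia channel, which fell from 63.7 ± 13.2 to 37.1 ± 7.11 CPM, while Atp6v1b1, the proton pump subunit, was not called (log2 -0.33, adjusted p = 0.0575). Of 19 principal cell and 23 intercalated cell markers, 3 and 4 were lower and 1 of each higher. These counts moved by over 1.5 times on leaving out single libraries. For principal cells the lower count was 5 with Young 5 left out and 6 with Old 4 left out, and for intercalated cells 1 with Young 1, Young 3 or Old 5 left out and 2 with Young 2 or Young 4 left out. For thick ascending limb it was 0 with Young 2, Young 3 or Young 4 left out and 1 with Young 1, Old 1, Old 2 or Old 3 left out. The higher count of the distal convoluted tubule was 1 with Young 2, Young 3, Young 4, Old 1, Old 2, Old 3 or Old 5 left out.

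Genes of blood pressure control were called lower in 4 of 18 cases and higher in none. Ren1, renin of the juxtaglomerular cells, measured 113, 85.7, 77.4, 74.3 and 89.4 CPM in Young and 22.2, 35.7, 30.2, 48.3 and 39.4 CPM in Old (log2 -1.32, SE 0.17, adjusted p = 0.000116). Ace, the angiotensin converting enzyme of the brush border, measured 42.5, 51.5, 61.2, 46.7 and 50.2 CPM and 25.5, 33.2, 20.5, 14.4 and 19.5 CPM (log2 -1.15, SE 0.20, adjusted p = 0.00133). Old lay below Young in every library for both. Hsd11b1 and Hsd11b2, which activate and inactivate glucocorticoid, fell from 90.7 ± 18.96 to 37.1 ± 8.52 CPM and 93.3 ± 8.04 to 71.4 ± 6.601 CPM. Kl, the ageing-related co-receptor Klotho, measured 136, 136, 161, 160.3 and 279 CPM and 156, 143, 182, 118 and 125 CPM and was not called (log2 -0.27, adjusted p = 0.362). Of 23 mineral handling genes 4 were lower, among them Pdzk1, a scaffold of brush border transporters (930.2 ± 85.0 to 615 ± 116 CPM). In growth signalling, Foxo3 rose from 51.3 ± 6.20 to 77.4 ± 11.6 CPM, Met, the hepatocyte growth factor receptor, fell from 178 ± 25.2 to 111 ± 21.1 CPM, and Mtor fell from 102 ± 3.25 to 73.8 ± 13.1 CPM, while Igf1 was not called (log2 -0.18, adjusted p = 0.588). That list held 1 higher and 4 lower of 36, a share near the 13.6% called over all tested genes. The higher count was 2 with Young 1, Young 5 or Old 2 left out, 3 with Young 2 left out and 6 with Old 4 left out, and the lower count 2 with Young 2, Young 3, Young 4 or Old 5 left out. Ren1, Ace and Mtor kept their calls with the clock covariate.

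Glomerular and vascular markers were called in both directions, against 6.47% called higher and 7.13% lower over all tested genes. Podocyte markers were higher in 4 and lower in 1 of 19. Nphs1, nephrin of the slit diaphragm, was not called (6.01 ± 1.05 to 8.08 ± 1.73 CPM, adjusted p = 0.154), and Cdkn1c, a cell cycle inhibitor of mature podocytes, rose from 39.2 ± 1.52 to 55.1 ± 3.97 CPM. Col4a3, a chain of the glomerular basement membrane, fell from 49.3, 48.2, 55.0, 58.9 and 55.1 CPM to 23.9, 22.7, 24.5, 38.4 and 21.5 CPM (log2 -1.02, SE 0.24, adjusted p = 0.00929). Old 4 was again nearest to Young. Of 24 endothelial markers 4 were higher and 1 lower, and Pecam1, the general endothelial marker, was not called (log2 0.35, adjusted p = 0.0710). Icam1, an adhesion molecule for leukocytes, rose from 7.74, 5.89, 7.18, 8.30 and 8.01 CPM to 17.8, 15.8, 15.4, 14.8 and 27.5 CPM (log2 1.30, SE 0.19, adjusted p = 0.000248), and Vcam1, another that injured tubule cells also express, from 8.98, 8.83, 7.48, 6.03 and 8.93 CPM to 25.7, 22.1, 16.3, 28.3 and 63.5 CPM (log2 1.95, SE 0.31, adjusted p = 0.00100). Ehd3, a marker of glomerular endothelium, fell from 79.5 ± 11.1 to 57.0 ± 4.76 CPM. Icam1 kept its call with the clock covariate. The podocyte higher count was 2 with Young 3, Old 1 or Old 2 left out.

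Extracellular matrix genes were called higher in 11 of 45 cases and lower in none (median log2 0.50, 0.33 without Old 5). Tgfbi, a matrix protein induced by TGF-beta, measured 6.91, 6.09, 8.49, 4.96 and 4.99 CPM and 20.4, 11.8, 12.4, 17.6 and 34.4 CPM (log2 1.61, SE 0.36, adjusted p = 0.00834). Loxl1, a collagen cross-linking enzyme, rose from 11.3 ± 2.60 to 24.97 ± 9.65 CPM, Thbs1, thrombospondin, from 4.51 ± 0.695 to 8.62 ± 1.48 CPM, and Timp2, an inhibitor of matrix proteases, from 105 ± 17.2 to 170.0 ± 48.6 CPM. Col1a1, the main fibrillar collagen chain, measured 9.08, 8.73, 7.89, 3.56 and 9.58 CPM and 14.1, 9.36, 8.96, 14.8 and 34.2 CPM (log2 1.07, adjusted p = 0.0449), with Old 5 far above the rest. Its call was lost without Young 1, Young 2, Young 3, Young 4, Old 1 or Old 5 (adjusted p 0.0624 to 0.131). Stromal markers were higher in 5 and lower in 1 of 19, and Pdgfrb, the pericyte receptor, was not called (log2 0.81, adjusted p = 0.0622). The matrix count was 5 with Young 4 or Old 5 left out, 6 with Young 1 or Young 3 left out and 7 with Young 2 or Old 1 left out, and 1 with the clock covariate, Timp2. The stromal higher count was 1 with Old 5 left out, 2 with Young 1 left out and 3 with Young 3 or Young 4 left out.

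Among lists with at least 10 tested members, those of B and plasma cells, T and NK cells and macrophages had the highest medians. Macrophage and dendritic cell markers were called higher in 18 of 24 cases and lower in none (median log2 1.76). Without Old 5 the median was 0.98, with 12 higher and 1 lower of 23. Their summed level ran from 183 to 212 CPM in Young and from 222 to 1278 CPM in Old. Ctss, cathepsin S of antigen-presenting cells, measured 18.1, 18.8, 19.6, 19.6 and 20.7 CPM and 44.4, 37.1, 32.5, 62.8 and 279.8 CPM (log2 2.24, SE 0.55, adjusted p = 0.0194). Old 5 was several times above the other Old libraries, which in turn lay above Young. Adgre1, the F4/80 macrophage marker, measured 1.75, 2.84, 1.62, 2.15 and 1.31 CPM and 4.38, 2.39, 3.86, 6.33 and 17.2 CPM (log2 1.80, adjusted p = 0.0251), a call lost without Young 1, Young 3, Young 4 or Old 5 (adjusted p 0.0525 to 0.0876). Mrc1, the mannose receptor, rose from 1.64 ± 0.693 to 5.57 ± 3.69 CPM, and Gpnmb, of lipid-laden macrophages, from 0.103 ± 0.124 to 2.07 ± 2.49 CPM. Igkc, the kappa light chain constant region (chr6:70726435-70726966, plus strand), measured 3.10, 2.94, 6.37, 0.970 and 4.86 CPM and 40.5, 95.4, 56.8, 49.9 and 37.6 CPM (log2 3.94, SE 0.45, adjusted p = 0.000207), highest in Old 2. Igha, the IgA heavy chain, measured 92.9, 95.1, 64.6, 21.98 and 47.4 CPM and 76.2, 774, 195, 1019 and 99.0 CPM, highest in Old 2 and Old 4 and with Old 1 within the Young range (log2 2.75, adjusted p = 0.0405). The call of Igha was lost without Young 1, Young 2, Young 3, Young 4, Young 5, Old 2 or Old 4 (adjusted p 0.0659 to 0.0919). Of 16 B and plasma cell genes 10 were higher (median log2 3.66), whereas Cd79a, of the B cell receptor, had too few counts to be tested. T and NK cell genes were higher in 7 of 13 (median log2 2.40, 1.24 without Old 5). Ccl5, a T cell chemokine, measured 2.68, 2.03, 0.910, 2.37 and 1.84 CPM and 10.1, 7.55, 5.94, 8.86 and 122 CPM (log2 3.97, adjusted p = 0.0198), with Old 5 far above the others. Cd3e, of the T cell receptor complex, was not called (log2 2.68, adjusted p = 0.0639). The macrophage count was 11 with Young 4 left out, the B and plasma cell count 4 with Young 4 left out, 5 with Young 1 or Young 3 left out and 6 with Young 2 left out and the T and NK cell count 2 with Old 5 left out, 3 with Young 2, Young 3 or Young 4 left out and 4 with Young 1 left out. With only the 10 libraries in the model fewer members passed the filter, and these counts were 8 of 21, 5 of 9 and 1 of 5 tested. The calls of Ctss (adjusted p = 0.0618) and Ccl5 (adjusted p = 0.0540) were lost there. With the clock covariate the 3 counts were 0, 3 and 0, and Igkc and Igha kept their calls.

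MHC class II genes, which present antigen, were highest in Old 5. Among 10 MHC class II genes 6 were called higher (median log2 1.56, 0.77 without Old 5). H2-Aa, an MHC class II chain, measured 88.3, 103, 99.2, 124 and 134 CPM and 203, 222, 168, 259 and 895 CPM (log2 1.67, SE 0.43, adjusted p = 0.0223). All Old libraries were above Young, and Old 5 was several times above the other Old libraries. H2-Eb1, a class II beta chain, measured 113, 109, 116, 112 and 84.2 CPM and 207, 185, 124, 285 and 709 CPM (log2 1.49, SE 0.38, adjusted p = 0.0204). The call of H2-Aa was lost without Young 1 (adjusted p = 0.0516), and with only the 10 libraries in the model that of H2-Eb1 was lost (adjusted p = 0.0587). The class II count was 1 with Young 1 left out, 2 with Young 4 left out and 3 with Young 2, Young 3 or Old 5 left out. It was 0 of 8 tested with the 10 libraries, 10 with DESeq2 and 0 with the clock covariate. Interferon response genes were higher in 6 of 31 cases, with a median log2 change of 0.92 that was 0.30 without Old 5. Gbp5, a guanylate-binding protein, rose from 0.561 ± 0.178 to 2.98 ± 2.70 CPM, and Ifit1 was not called (log2 1.27, adjusted p = 0.226). The interferon count was 1 with Old 5 left out and 3 with Young 3 or Young 4 left out.

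Complement genes were called higher in 14 of 26 cases and lower in 2 (median log2 1.45). Without Old 5 the median was 0.93, with 11 higher and 1 lower of 25. C3, the central component, measured 4.23, 4.97, 9.50, 3.56 and 7.88 CPM and 18.5, 21.97, 21.2, 33.2 and 105 CPM (log2 2.73, SE 0.51, adjusted p = 0.00426). C2, the classical pathway protease, measured 29.2, 30.3, 28.8, 26.8 and 28.2 CPM and 45.5, 47.4, 43.6, 43.8 and 51.1 CPM (log2 0.69, SE 0.11, adjusted p = 0.000635). Old was above Young in every library for both, and C2 varied little within each group. C4b rose from 3.65 ± 0.995 to 17.4 ± 9.42 CPM. C8a, of the membrane attack complex, went against the list and fell from 21.1 ± 4.13 to 8.26 ± 1.90 CPM (log2 -1.35, adjusted p = 0.000116). Of 24 chemokines and receptors 9 were higher and 1 lower (median log2 1.39). Without Old 5 the median was 0.74, with 6 higher of 21 tested, and with the 10 libraries alone 5 of 15 tested were higher. Among the higher ones were Cxcl12, a stromal chemokine (70.0 ± 9.72 to 145 ± 42.6 CPM), Cxcl1, a neutrophil attractant (0.389 ± 0.111 to 1.89 ± 0.857 CPM), Cxcl13, a B cell attractant (0.645 ± 0.513 to 4.83 ± 4.64 CPM), and Ccl2, a monocyte attractant (0.461 ± 0.388 to 2.19 ± 1.36 CPM). C2 and C8a kept their calls with the clock covariate, while no chemokine did. The complement higher count was 9 with Young 1 or Young 4 left out.

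Tubule injury and repair genes were called higher in 12 of 29 cases and lower in none (median log2 0.99). Havcr1, the injury marker KIM-1 (chr11:46735080-46779578, plus strand), measured 0.103, 0.203, 0.506, 0.754 and 0 CPM and 4.77, 5.16, 3.23, 6.03 and 14.9 CPM (log2 4.35, SE 0.74, adjusted p = 0.00159). It was near 0 in Young and present in all Old libraries, most in Old 5. Sox9, a transcription factor of regenerating tubule cells, measured 2.48, 4.47, 2.12, 2.37 and 2.10 CPM and 8.05, 6.59, 5.83, 9.93 and 11.9 CPM (log2 1.63, SE 0.26, adjusted p = 0.000572). Spp1, osteopontin, rose from 113 ± 29.3 to 225 ± 70.3 CPM, and Cp, ceruloplasmin, from 24.3 ± 5.58 to 87.6 ± 44.2 CPM. Cdkn1a, the cell cycle inhibitor p21 and a p53 target, measured 15.8, 15.2, 18.4, 23.7 and 13.3 CPM and 28.4, 29.3, 27.0, 47.5 and 51.4 CPM (log2 1.09, SE 0.19, adjusted p = 0.00100). Old 4 and Old 5 were the highest, and no Old library overlapped Young. Of 24 senescence and p53 genes 5 were higher and 1 lower, beside 6.47% and 7.13% over all tested genes. Phlda3 and Eda2r, further p53 targets, rose from 2.02 ± 0.649 to 5.97 ± 1.63 CPM and 0.391 ± 0.246 to 2.25 ± 0.702 CPM. Sox9, Cdkn1a and Phlda3 kept their calls with the clock covariate, under which 4 injury genes stayed higher. Proliferation genes were called in 1 of 32 cases, where 13.6% of all tested genes were called. Their median log2 change of 0.40 turned to -0.11 without Old 5. Mki67, the proliferation marker, was highest in Old 5 at 10.97 CPM against 1.17 to 1.82 in the other Old libraries (adjusted p = 0.153).

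**Figure D4:**
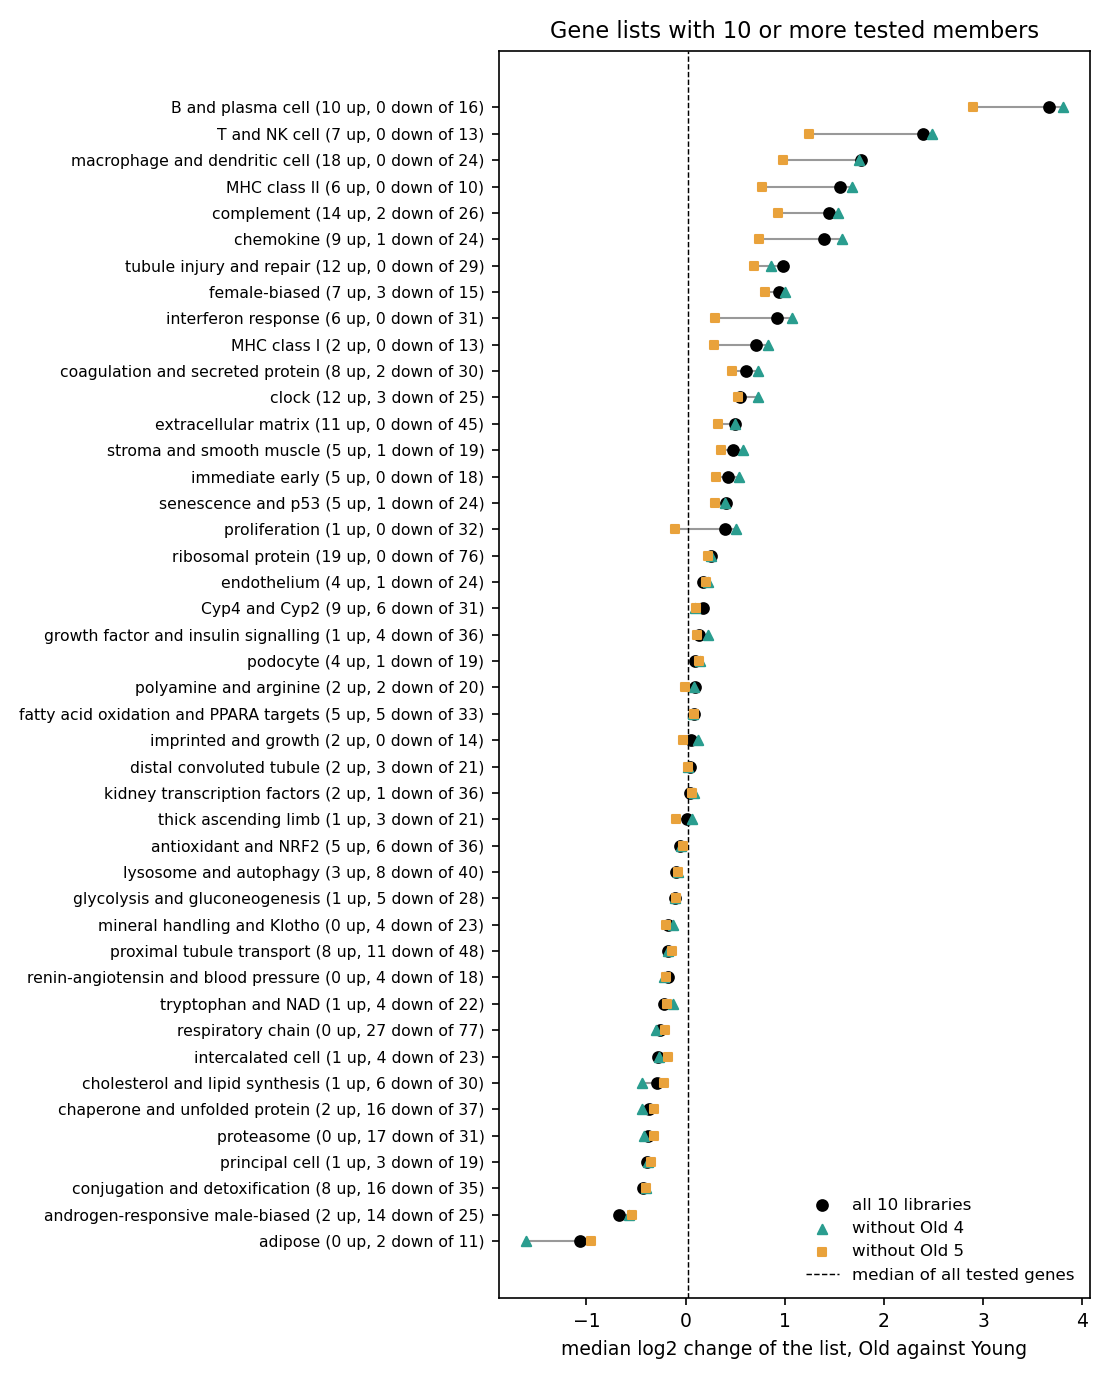
Median log2 change of each gene list with at least 10 tested members (horizontal axis), with all 10 libraries, without Old 4 and without Old 5, beside the median of all tested genes (0.02). B and plasma cell, T and NK cell and macrophage lists lay highest and came down without Old 5, while male-biased, detoxification, chaperone and proteasome lists lay below 0 in all 3 fits.

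Clock genes had called members in both directions. Of 25 tested clock and output genes 12 were called higher and 3 lower. Dbp, a transcription factor of the clock output, measured 4.44, 8.93, 7.18, 9.05 and 20.9 CPM in Young and 162, 182, 179, 12.3 and 127 CPM in Old (log2 3.73, SE 0.70, adjusted p = 0.00478). The level in Old 4 lay within the Young range and those of the other Old libraries far above it. Per3, a period gene, measured 2.37, 3.96, 3.64, 2.05 and 6.83 CPM and 17.6, 23.02, 17.7, 5.35 and 17.5 CPM (log2 2.12, SE 0.38, adjusted p = 0.00186). Bmal1, of the activating arm, measured 5.16, 6.29, 10.6, 4.74 and 7.88 CPM and 0.199, 0.191, 0, 3.21 and 1.20 CPM (log2 -2.83, adjusted p = 0.0377), and its call was lost without Young 1, Young 2, Young 3, Young 4, Young 5, Old 1, Old 2, Old 3 or Old 5 (adjusted p 0.0584 to 0.0810). For Per3, too, Old 4 was within the Young range, and for Bmal1 it was the highest Old library. Nr1d2, a REV-ERB repressor, rose from 47.5 ± 11.9 to 98.3 ± 23.4 CPM, Bhlhe41, a DEC repressor, from 1.38 ± 0.868 to 8.29 ± 4.09 CPM, and Clock fell from 38.7 ± 3.79 to 24.3 ± 6.48 CPM. Tsc22d3, a glucocorticoid target, was above Young in every Old library, Old 4 included, going from 23.4, 23.2, 25.1, 22.9 and 22.8 CPM to 35.0, 41.2, 29.7, 29.0 and 40.6 CPM (log2 0.58, adjusted p = 0.00847). Dbp, Per3, Bmal1, Nr1d2 and Clock are part of the clock difference, so that covariate cannot test their calls. Hour of collection and age cannot be told apart for the genes of this list.

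Promoters of clock genes hold the sequences through which the loop acts. The E-box CACGTG, bound by CLOCK and BMAL1, was found on either strand in 7.15% of 32851 RefSeq promoters. It was found in those of 6 of 19 clock genes with an entry (Cry1, Per1, Tef, Ciart, Bhlhe41 and Fkbp5), of which 3 were called higher. The D-box TTATGTAA, bound by DBP and TEF, was in 0.938% of promoters and in that of 1 clock gene, Per3. Among all tested genes with a promoter entry, the E-box was in 10.3% of those called higher, 10.6% of those called lower and 11.5% of all. Stretches around the matches are shown 5' to 3' on the gene's strand, with the motif in capitals, because Ciart, Per1 and Per3 enter the clock difference and Bhlhe41 was called higher. All lie upstream of the RefSeq start site in GRCm38.p6, while the Bhlhe41 stretch runs into the GENCODE gene, which spans chr6:145858243-145865558. The stretches are at chr3:95882229-95882389, minus strand (Ciart), chr6:145865523-145865618, minus strand (Bhlhe41), chr11:69098738-69098833, plus strand (Per1) and chr4:151044771-151044915, minus strand (Per3):
Ciart: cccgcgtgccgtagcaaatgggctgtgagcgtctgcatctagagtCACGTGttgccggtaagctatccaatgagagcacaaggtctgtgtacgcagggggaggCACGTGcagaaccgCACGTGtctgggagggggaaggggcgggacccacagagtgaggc
Bhlhe41: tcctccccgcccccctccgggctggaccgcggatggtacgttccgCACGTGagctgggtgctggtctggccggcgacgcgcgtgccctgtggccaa
Per1: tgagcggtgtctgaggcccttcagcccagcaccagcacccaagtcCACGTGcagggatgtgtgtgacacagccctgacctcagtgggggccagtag
Per3: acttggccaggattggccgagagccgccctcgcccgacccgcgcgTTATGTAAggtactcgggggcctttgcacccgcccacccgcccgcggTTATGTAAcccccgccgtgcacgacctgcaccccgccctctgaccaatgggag
Ciart, a clock repressor, holds 3 E-boxes and Per3 2 D-boxes. No binding was measured here.

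**Figure D5:**
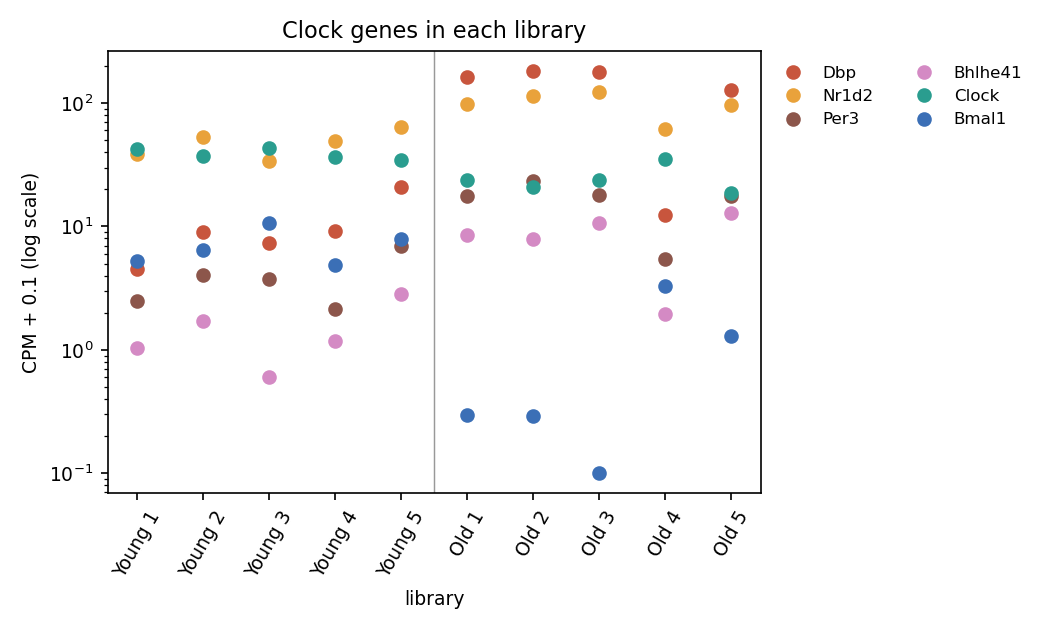
CPM plus 0.1 (vertical axis, log scale) of 6 clock genes in each of the 10 libraries. Dbp and Per3 in Old 4 (12.3 and 5.35 CPM) lie with the Young libraries, while Old 1, Old 2, Old 3 and Old 5 lie above them and have less Bmal1.

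Immediate early genes, which respond to handling and stress within minutes, were called higher in 5 of 18 cases, beside 6.47% over all tested genes. Fosl2 rose from 11.7 ± 2.995 to 21.1 ± 2.58 CPM, Klf2 from 25.6 ± 4.17 to 43.4 ± 8.95 CPM and Klf4 from 13.1 ± 2.03 to 21.8 ± 5.66 CPM, whereas Fos was not called (log2 0.09, adjusted p = 0.959). Klf4 kept its call with the clock covariate. Markers of neighbouring tissue varied by library. Haemoglobin, from blood, was high in Old 1 and Old 3, where Hba-a1 stood at 586 and 527 CPM against 42.9 to 149 CPM in the other Old libraries, and it was not called (adjusted p = 0.274). Adipoq, of fat cells, ran from 0.103 to 3.76 CPM in Young and from 0 to 1.56 CPM in Old, and the urothelial marker Upk1a stood at 6.03 CPM in Old 4 and from 0.994 to 2.94 CPM in the other libraries. Their part in the results was not tested.

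Of 36 kidney transcription factors, 2 were higher and 1 lower, where 13.6% of all tested genes were called (6.47% higher, 7.13% lower). Hnf4a, a master regulator of the proximal tubule, measured 281, 308, 321, 299.5 and 383 CPM and 326, 349, 419, 252 and 303 CPM and was not called (log2 0.05, adjusted p = 0.829). Tfap2b, of the distal nephron, rose from 73.1, 70.1, 75.8, 66.5 and 62.8 CPM to 104, 105, 106, 82.3 and 127 CPM (log2 0.59, SE 0.11, adjusted p = 0.00166). The higher count was 4 with Young 5 or Old 4 left out, and the lower count 0 with Young 1, Young 2, Young 3, Young 4, Old 1, Old 2, Old 3 or Old 4 left out.

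Spread between libraries was described without a test. The SD of log2 CPM was larger in Old than in Young for 55.5% of the tested genes, with median SDs of 0.308 in Old and 0.288 in Young. Without Old 5 the share was 49.9%, without Old 4 43.3% and without Young 5 65.0%, so that its direction rested on single libraries.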

How the data were processed

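RNA was extracted from kidney with Trizol and 3' end libraries were made with Lexogen QuantSeq from 500 ng of total RNA, per the labels' protocols. Reads were handled with Bowtie2 and bedtools against mm10, per the submitters' processing notes. Their versions, the annotation, any use of strand and the handling of multiply aligned reads are not given in the sources used. The authors deposited raw read counts per gene symbol, 1 file per library, with no normalization, and 40879 symbols are listed.

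From these counts, edgeR 4.0.16 (TMM scaling, filterByExpr with a minimum count of 10, robust quasi-likelihood fit, group as the only term, all 16 libraries) gave the contrast of Old with Young for 14665 genes, with Benjamini-Hochberg adjustment and a threshold of 0.05. CPM use TMM-scaled totals, and log2 CPM a prior count of 2. Single values per library were compared by exact permutation tests, two-sided. Alternatives were DESeq2 1.42.0, limma-voom (limma 3.58.1), upper quartile scaling, other filters, the 10 libraries alone, mitochondrial genes left out, the replicate number as a block, the clock difference as a covariate, and each library left out. Scripts ran in R 4.3.3 and Python 3.11.15.

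The comparison, its 49 gene lists and the rule for naming genes were chosen with earlier results of these data known. Genes were named if they were among the 20 largest rises or falls (at least 5 CPM, no overlap), the 12 largest gains or losses in CPM, the first of a list or among its 6 smallest p-values past the threshold (its 3 smallest where fewer passed), or among the 6 most abundant seen in 1 group only. Motifs, and the genes named for holding one, were chosen after their values were seen. Gene coordinates are from GENCODE M21 (GRCm38, mm10), promoter sequences from RefSeq (GRCm38.p6). Some named genes are not reported here.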

Additional observations from a re-analysis of the deposited data

Results flagged for a closer look

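In each group of 5 libraries, the gap between the highest or lowest library and its neighbour was divided by the range of the group, and a ratio above 0.71 (Dixon's 95% limit) marks a library that stands apart. This was done for the genes named above and for library measures, and 45 of 365 groups had such a library (12.3%). Chance alone marks about 1 in 20 where values are normally distributed. CPM need not be, above all at few counts, so the 12.3% cannot be read as an excess over chance. The genes were named partly for their changes and many move together, so these groups are not independent. Ratios are given in brackets.

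Old 5 stood above the other Old libraries for Adgre1 (0.733), Apoe (0.718), C3 (0.831), Ccl5 (0.964), Cd3e (0.843), Col1a1 (0.769), Cp (0.829), Ctss (0.878), Cxcl13 (0.738), Gbp5 (0.772), Gpnmb (0.872), H2-Aa (0.876), H2-Eb1 (0.725), Havcr1 (0.759), Icam1 (0.764), Ifit1 (0.721), Mki67 (0.934), Prlr (0.866), Vcam1 (0.745) and genes detected, thinned (0.756). Most of these are immune, injury or matrix genes. Old 5 stood below the others for Acsm2 (0.755), Cycs (0.715) and Pdzk1 (0.756), which serve proximal tubule metabolism, respiration and brush border scaffolding. Old 4 stood above the other Old libraries for Col4a3 (0.826), Hsp90aa1 (0.812), Hsp90ab1 (0.733) and Ndrg1 (0.841), and below them for clock difference (0.747). Old 2 was high for C8a (0.739) and Foxo3 (0.886).

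Among Young libraries, Young 5 was high for Ccnd1 (0.821), Dbp (0.719), Kl (0.820), ND3 (0.766) and Pck1 (0.853) and low for H2-Eb1 (0.785), Hsp90aa1 (0.718), Stard4 (0.878) and mt-Rnr1 (0.857). The other ratios above the limit were Rhov (0.772) high and Psmb5 (0.743) low in Young 1, Sox9 (0.841) high in Young 2, Tsc22d3 (0.740) high in Young 3, and Kynu (0.726) high and Col1a1 (0.718) low in Young 4. What sets these libraries apart was not tested.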

How the results depend on the processing

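With the clock difference as a covariate 387 genes were called, 156 higher and 231 lower. Since this measure ran higher in 4 of the 5 Old libraries than in any Young one, it leaves less of the contrast to test. Leaving out 1 library gave 1208 to 2656 called genes, 548 to 1264 higher and 595 to 1392 lower, with the fewest in total without Old 5 and the most without Old 4. DESeq2 called 2473, upper quartile scaling 1862, limma-voom 1824 and the 10 libraries alone 1384. Of 161 called genes named, 63 kept their call under all of the 19 alternatives that tested them, and 146 under all but the covariate. A gene that an alternative's filter removed was not counted as losing its call there. Of the 1995 called genes, 1725 were tested with a minimum count of 50 and 1884 with the 10 libraries alone. The 161 include clock genes from which the covariate was made, and it cannot test those. With the covariate 2 of the 161 changed sign, Ndrg1 (log2 0.13) and Cyfip2 (log2 9.39e-05). Same-numbered Young and Old libraries deviated together only weakly (Pearson r -0.0575 to 0.130 across genes) and did not each correlate best with their own number. Such correlations cannot show whether the numbers mark a pair or a batch, which was not tested. The replicate block was fitted to the 10 libraries alone and called 1584 genes, against 1384 for these libraries without it. Of the named calls, 11 were lost with the block, Dbp and G6pc among them, and 9 with the 10 libraries and no block. Leaving out 1 library left the share of genes with the larger SD in Old at 43.3 to 65.0%, with 65.0% without Young 5, 43.3% without Old 4 and 49.9% without Old 5. Library totals, mitochondrial share and genes detected kept their direction and side of the threshold. Genes below 1 CPM rest on few counts.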

Other observations

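Secreted and coagulation proteins, taken as a group, were called higher in 8 of 30 tested cases and lower in 2 (median log2 0.61, against 0.02 over all tested genes). Fgg, the fibrinogen gamma chain, measured 5.16, 6.19, 8.19, 3.45 and 7.48 CPM in Young and 12.1, 16.7, 20.01, 10.02 and 23.2 CPM in Old (log2 1.43, SE 0.23, adjusted p = 0.000572). Trf, transferrin, the iron carrier of plasma, measured 10.7, 12.5, 21.4, 12.4 and 13.9 CPM and 28.9, 28.9, 29.5, 33.0 and 35.3 CPM (log2 1.13, SE 0.19, adjusted p = 0.000784). Every Old library lay above every Young library for both. Serpine2, a protease inhibitor, rose from 23.5 ± 2.37 to 41.5 ± 9.97 CPM (adjusted p = 0.00140). Trf and Serpine2 kept their calls with the clock covariate.

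Among arginine and polyamine genes, 2 of 20 were called higher and 2 lower, against 6.47% and 7.13% of all tested genes. The higher count was 1 with Young 4 or Old 5 left out. Besides Odc1, Oaz2, an antizyme that marks ornithine decarboxylase for degradation, fell from 88.5, 79.9, 65.7, 91.3 and 68.0 CPM to 47.2, 52.4, 45.2, 57.1 and 41.7 CPM (log2 -0.69, SE 0.14, adjusted p = 0.00237). Nos3, the endothelial nitric oxide synthase, rose from 2.48, 2.03, 2.12, 1.72 and 2.63 CPM to 5.77, 4.30, 4.69, 3.21 and 6.68 CPM (log2 1.17, SE 0.25, adjusted p = 0.00468). The groups were apart for both. Of 14 imprinted genes, 2 were called higher (6.47% over all tested genes), Cdkn1c and Plagl1, a zinc finger regulator of growth that went from 3.72 ± 0.737 to 6.52 ± 0.605 CPM (adjusted p = 0.0143).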
